A study of Mus musculus with 10 samples.

Results

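The genes described here are 29 enzymes and regulators of cholesterol and fatty acid synthesis, read in single mouse embryos with and without the transcription factor Klf5. They were taken by name: a gene counted when at least 1 probe set on the array carried its symbol and no other, and it was read at its probe set with the highest mean intensity over the 10 arrays. All 29 names were found among the 16936 genes with such a probe set, and all 29 were bright enough to be tested. They comprise 15 sterol enzymes, 10 fatty acid enzymes and 4 regulators. The embryos were collected from the oviduct at 3.0 days post coitum, 5 wild type (WT1 to WT5) and 5 Klf5 knockout (KO1 to KO5), with 1 Affymetrix array per embryo. No label gives the strain, the litter, the sex or the part of Klf5 that was deleted, and no label says how the allele was made, so p-values measure only the spread between these embryos. RNA of whole embryos was amplified before labelling, so fewer cells of a type and less RNA per cell cannot be told apart.

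Cholesterol is built from acetyl-CoA through mevalonate, isoprenyl diphosphates, squalene and lanosterol, and each step has its own enzyme. Fatty acids are built from the same acetyl-CoA, which ATP citrate lyase releases in the cytosol, acetyl-CoA carboxylase turns into malonyl-CoA and fatty acid synthase joins into palmitate, after which elongases and desaturases shape the chain. Both pathways are controlled by the SREBP transcription factors, which SCAP carries out of the endoplasmic reticulum when sterols are low and INSIG proteins hold back when sterols are high. The early embryo draws on maternal lipid stores and makes new membrane at each cleavage.

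Each level is log2(intensity + 16) of a probe set. A difference is the KO mean minus the WT mean of those levels, and the added 16 makes it smaller than the true change where a probe set is dim. The Klf5 transcript lay between 10.12 and 12.04 in WT against 4.91 and 6.03 in KO, so every embryo followed its label (limma adjusted p = 0.000162). All 10 embryo markers, Pou5f1, Cdx2 and Krt8 among them, were at or above the level filter of 5.55. Their summed intensity was 16972 to 37165 across WT and 6068 to 10391 across KO, with the epithelial keratins Krt8 at a mean of 13.62 against 10.67 and Krt18 at 13.21 against 11.01, and their part in the results below was not tested. The markers of cumulus and granulosa cells had a summed intensity of 285 to 404 across WT and 303 to 392 across KO embryos, with 5 of 7 at or above the filter, the brightest of them near 6.7. For the oviduct markers, 1 of 5 was at or above it (summed 90.9 to 133 in WT, 93.2 to 121 in KO), and for blood and immune cells 2 of 5 (179 to 335 and 172 to 242). Of 3 adipocyte and liver markers, Adipoq and Alb were under the filter, while the apolipoprotein Apoa1 averaged 8.81 ± 1.09 in WT against 6.55 ± 0.59 in KO (SD, n = 5), and its part in the results below was not tested. The arrays form sets that genotype does not explain: WT1, WT2, WT3, KO1 and KO2 read the bioB hybridisation control high and the other 5 read it low, and WT4 and WT5 stand apart from the rest. Some differences are therefore also given within each set or without WT4 and WT5. Without WT4 and WT5 the WT embryos left are all high-bioB arrays, while the KO embryos are of both sets, so genotype and set are partly confounded there.

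No member of either branch passed the test between genotypes. At an adjusted limma p of 0.05, 0 of 29 were called, where 85 of 23174 tested probe sets (0.367%) and 63 of 12518 tested genes at their brightest probe set (0.503%) were. At an unadjusted limma p under 0.05, 6 of 29 (20.7%) stood apart, Acly, Acaca, Fasn, Elovl1 and Pmvk with lower means in KO and Mvk with a higher one, beside 11.1% of all tested genes. The lower ones were 5 of 29 beside 5.78% of all tested genes, and the higher one was 1 of 29 beside 5.36%. The genotypes did not overlap for Acly and Fasn, 2 of 29 members, both lower in KO, where 1.65% of all genes were lower without overlap and 2.77% did not overlap in either direction. Without WT4 and WT5, 0 of 29 were called at an adjusted limma p of 0.05, beside 0.315% of tested probe sets. The median difference over the 29 was 0.01, with 15 higher and 14 lower, and over all tested genes it was -0.0054. Differences larger than 0.5 in size were seen for 5 of 29 members and for 1506 of 12518 tested genes. The 95% confidence intervals of the members reached from 0.18 to 1.03 on either side of the estimate, before any adjustment for the number of probe sets. That reach differed from gene to gene, and a difference smaller than a gene's own reach had an interval that crossed 0. Larger ones could also miss the adjusted threshold, as the -1.39 at Fasn did.

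**Figure D1:**
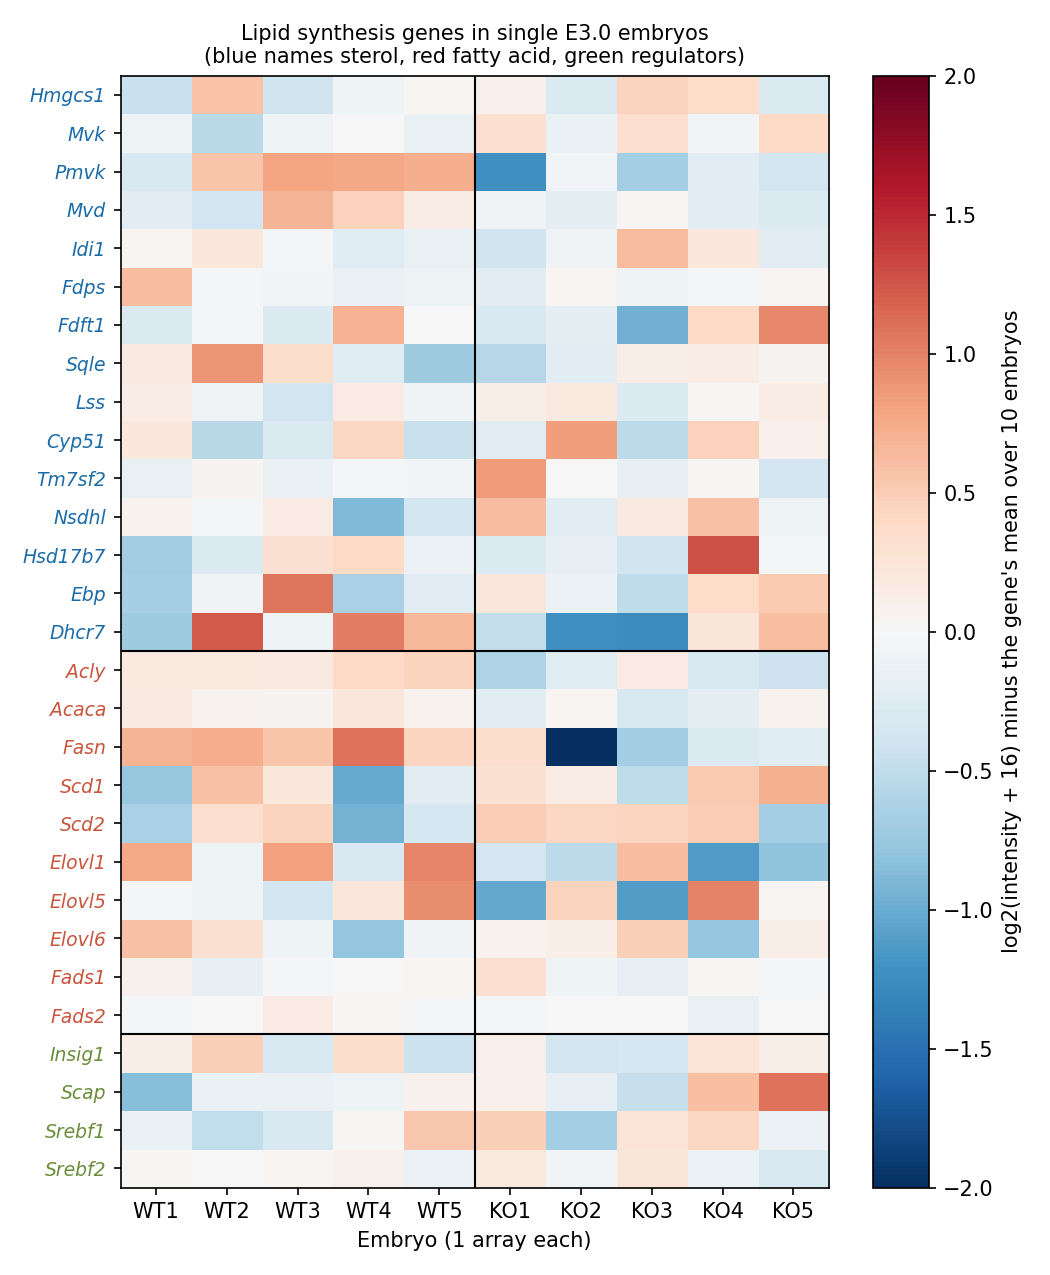
Heat map of the 29 genes (rows, grouped into sterol enzymes, fatty acid enzymes and regulators) in the 10 embryos (columns, WT left of the vertical line). Colour is log2(intensity + 16) minus the gene's own mean over the 10 embryos, limited to 2 in either direction. The rows of Acly and Fasn are red in all 5 WT embryos and in 1 KO embryo each, KO2 is the darkest cell at Fasn, and most sterol rows mix colours within each genotype.

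**Figure D2:**
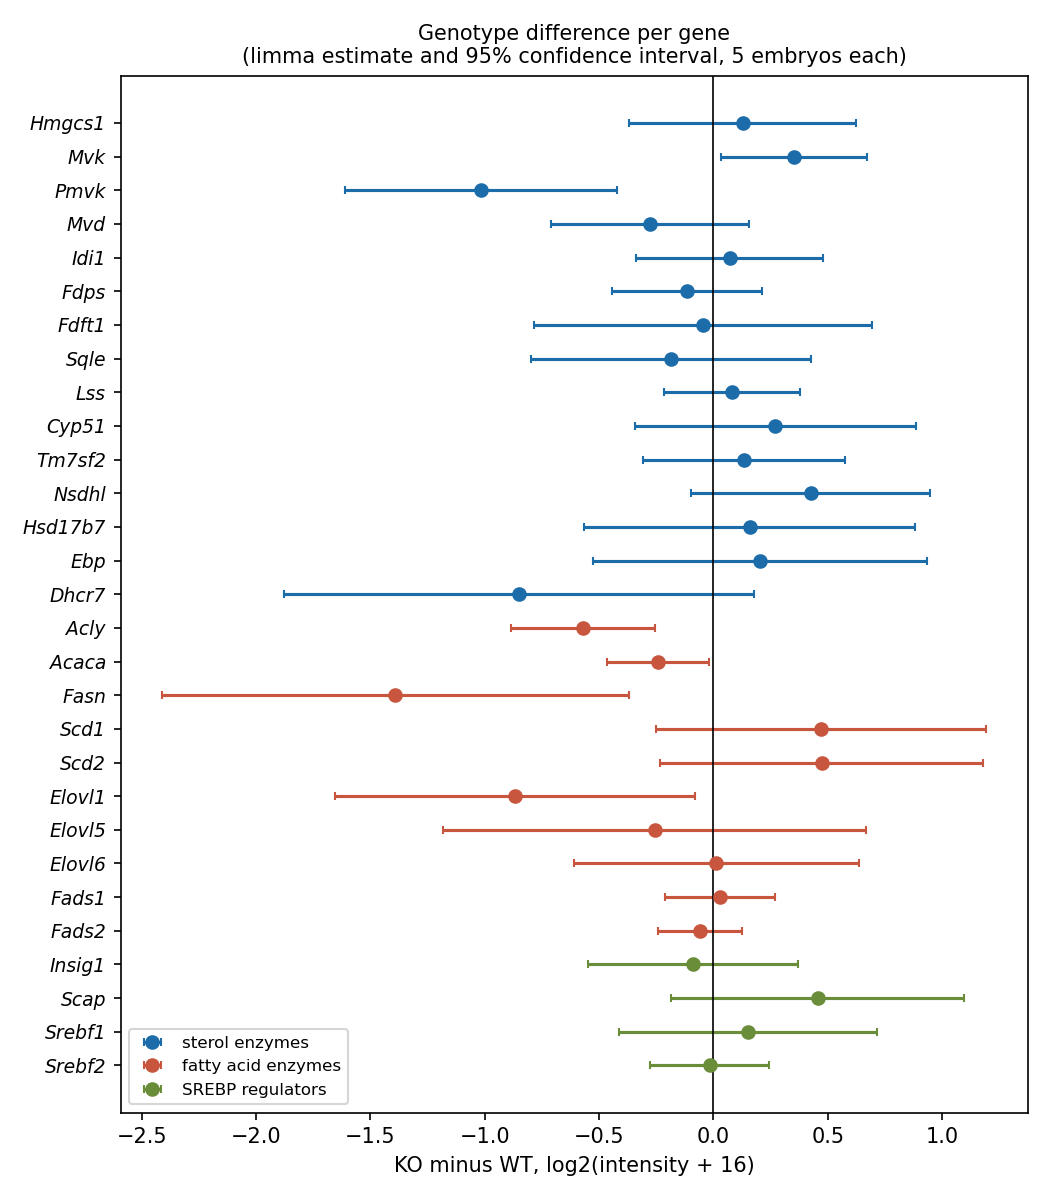
KO minus WT difference of each gene on the log2(intensity + 16) scale, with its 95% confidence interval from limma (5 embryos of each genotype), coloured by branch. The intervals of Pmvk, Acly, Acaca, Fasn and Elovl1 lie below 0 and that of Mvk above it, before any adjustment for the number of probe sets, and the other 23 cross 0.

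Sequence upstream of the annotated start is shown for the genes that carry these differences. These are the 3 enzymes of chain assembly Acly, Acaca and Fasn, the elongase Elovl1 and the mevalonate pathway kinases Pmvk and Mvk. Hmgcs1, the enzyme at the entry of the pathway, is shown beside them. Each window is the 250 bases before the most upstream start in the RefSeq table (GRCm38.p6). That table holds a window for 23 of the 29 members, without Sqle, Fads1, Fdps, Scd1, Scd2 and Fdft1. Starts were not measured here, so a window, that of Acaca included, need not be the promoter used in these embryos. The windows are chr13:119690101-119690350 (+) for Hmgcs1, chr5:114444019-114444268 (+) for Mvk, chr3:89454291-89454540 (+) for Pmvk, chr11:100528001-100528250 (-) for Acly, chr11:84195188-84195437 (+) for Acaca, chr11:120824548-120824797 (-) for Fasn and chr4:118427843-118428092 (+) for Elovl1. Capitals mark, on either strand, the sterol regulatory element-like TCACNCCAC, the CCAAT box of the SREBP partner NF-Y, the GC box GGGCGG and the CACCC-type CCNCNCCC of Kruppel-like factors. GC boxes and CACCC-type matches overlap in stretches that meet both. The share of G and C is 39.2% at Acaca, 47.6% at Pmvk and 58.8 to 72.0% at the other 5, beside a median of 52.4% over all windows.
Hmgcs1: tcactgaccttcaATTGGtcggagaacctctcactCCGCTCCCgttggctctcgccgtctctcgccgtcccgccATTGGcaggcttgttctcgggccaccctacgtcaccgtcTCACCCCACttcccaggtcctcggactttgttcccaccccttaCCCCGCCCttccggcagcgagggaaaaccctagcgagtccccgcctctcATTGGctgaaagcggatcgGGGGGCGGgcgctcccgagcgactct
Mvk: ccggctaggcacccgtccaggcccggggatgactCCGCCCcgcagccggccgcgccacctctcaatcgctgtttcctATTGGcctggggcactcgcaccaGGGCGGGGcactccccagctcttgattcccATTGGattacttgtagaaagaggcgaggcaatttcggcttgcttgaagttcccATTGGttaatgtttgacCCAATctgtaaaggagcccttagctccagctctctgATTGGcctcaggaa
Pmvk: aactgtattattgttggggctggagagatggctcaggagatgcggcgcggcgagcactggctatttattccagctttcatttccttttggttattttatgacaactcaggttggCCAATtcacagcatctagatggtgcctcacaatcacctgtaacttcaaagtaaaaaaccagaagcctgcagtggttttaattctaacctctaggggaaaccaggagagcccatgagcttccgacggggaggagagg
Acly: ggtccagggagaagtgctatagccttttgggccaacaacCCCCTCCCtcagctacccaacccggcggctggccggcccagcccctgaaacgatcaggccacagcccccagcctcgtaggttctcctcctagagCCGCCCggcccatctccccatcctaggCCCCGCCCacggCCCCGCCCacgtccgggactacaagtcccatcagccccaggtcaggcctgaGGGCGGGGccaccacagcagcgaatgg
Acaca: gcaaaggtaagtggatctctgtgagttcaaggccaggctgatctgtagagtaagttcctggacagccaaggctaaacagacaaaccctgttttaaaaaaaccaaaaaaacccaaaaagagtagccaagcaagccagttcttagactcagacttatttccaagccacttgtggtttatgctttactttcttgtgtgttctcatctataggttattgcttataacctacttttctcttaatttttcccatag
Fasn: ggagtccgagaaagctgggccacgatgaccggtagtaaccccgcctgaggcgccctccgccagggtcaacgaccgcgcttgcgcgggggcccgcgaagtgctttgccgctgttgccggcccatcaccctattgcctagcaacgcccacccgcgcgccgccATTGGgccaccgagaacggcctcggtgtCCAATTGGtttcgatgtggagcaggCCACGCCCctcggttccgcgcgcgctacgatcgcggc
Elovl1: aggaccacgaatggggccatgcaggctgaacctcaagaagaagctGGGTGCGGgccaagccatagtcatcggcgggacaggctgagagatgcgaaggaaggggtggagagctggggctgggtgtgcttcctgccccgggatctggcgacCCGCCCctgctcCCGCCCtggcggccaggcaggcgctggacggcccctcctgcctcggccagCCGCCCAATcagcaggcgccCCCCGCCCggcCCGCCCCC

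Of the 12 sterol enzymes matched, 11 hold CCAAT in this window, all but Dhcr7, against 3 of the 7 fatty acid enzymes and 34.5% of the 27025 genes in the table. The Mvk window holds 5 of them, Hmgcs1 and Fasn 3 each, Pmvk and Elovl1 1 each, and Acly and Acaca 0. GGGCGG is found in 11 of 12 sterol and 3 of 7 fatty acid windows, and in 33.0% of all genes, with 5 matches at Elovl1, 4 at Acly, 2 each at Hmgcs1 and Mvk and 0 at Pmvk, Acaca and Fasn. The CACCC-type letters are found in 8 of 12 and 4 of 7, and in 45.6% of all genes, with 4 matches at Acly, 3 each at Hmgcs1 and Elovl1, 1 each at Fasn and Mvk and 0 at Pmvk and Acaca. The TCACNCCAC letters are found at Hmgcs1 alone among the 23 members with a window, and in 1.03% of all genes. A match is a description of the letters, and no factor's binding was measured here.

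The 3 enzymes that assemble the fatty acid chain had lower means in KO embryos at their brightest probe sets, each with an unadjusted limma p under 0.05 and none past the adjusted threshold. Fasn, fatty acid synthase, was at 10.03, 10.08, 9.91, 10.43 and 9.78 in WT1 to WT5 and at 9.71, 6.74, 8.65, 9.07 and 9.11 in KO1 to KO5. Every KO embryo lay below every WT embryo, KO1 by a narrow margin and KO2 far below the rest. The means were 10.05 ± 0.24 and 8.66 ± 1.13 (SD, n = 5), a difference of -1.39 or 2.62-fold (95% interval -2.41 to -0.37, limma adjusted p = 0.293). Within the high-bioB and low-bioB arrays the difference was -1.78 and -1.16, and without KO2 it was -0.91 (limma adjusted p = 0.177).

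Acly, ATP citrate lyase, which supplies cytosolic acetyl-CoA to both branches, was at 11.79, 11.79, 11.78, 11.997 and 12.04 in WT1 to WT5 and at 10.98, 11.35, 11.75, 11.29 and 11.18 in KO1 to KO5. The genotypes did not overlap, although KO3 came close to the lowest WT embryo. The means were 11.88 ± 0.13 and 11.31 ± 0.29 (SD, n = 5), a difference of -0.57 or 1.48-fold (95% interval -0.88 to -0.25, limma adjusted p = 0.155). This probe set is of the _x_at type, which in Affymetrix naming may also bind other transcripts. Of the other tested Acly probe sets, 1 differed by -0.21, with means of 7.71 in WT and 7.50 in KO. The other differed by 0.28 near the level filter, with means of 5.46 and 5.74. The gene thus does not have the same direction throughout. The opposite sign comes from a dim probe set, which also had an unadjusted limma p under 0.05.

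Acaca, acetyl-CoA carboxylase, whose product commits carbon to fatty acids, was at 9.10, 8.99, 8.97, 9.14 and 8.98 in WT1 to WT5 and at 8.71, 8.95, 8.60, 8.72 and 8.98 in KO1 to KO5. KO5 lay among the lower WT embryos and the other 4 KO embryos below all WT, KO2 by a narrow margin. The difference was small, -0.24 or 1.18-fold (9.04 ± 0.08 and 8.79 ± 0.17, SD, n = 5, limma adjusted p = 0.435). Over these 3 enzymes the median difference was -0.57, beside -0.0054 over all tested genes, with -0.62 in the high-bioB and -0.61 in the low-bioB arrays. Per embryo, the median of the 3 deviations from each gene's own mean lay between 0.18 and 0.43 in WT and between -0.31 and -0.21 in KO embryos. These 3 genes are grouped here by their step in the pathway, with their values known, so that median is a description. It is the value of Acly at its _x_at probe set, and with Acly read at its next brightest probe set (-0.21) the middle value would be that of Acaca, -0.24.

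**Figure D3:**
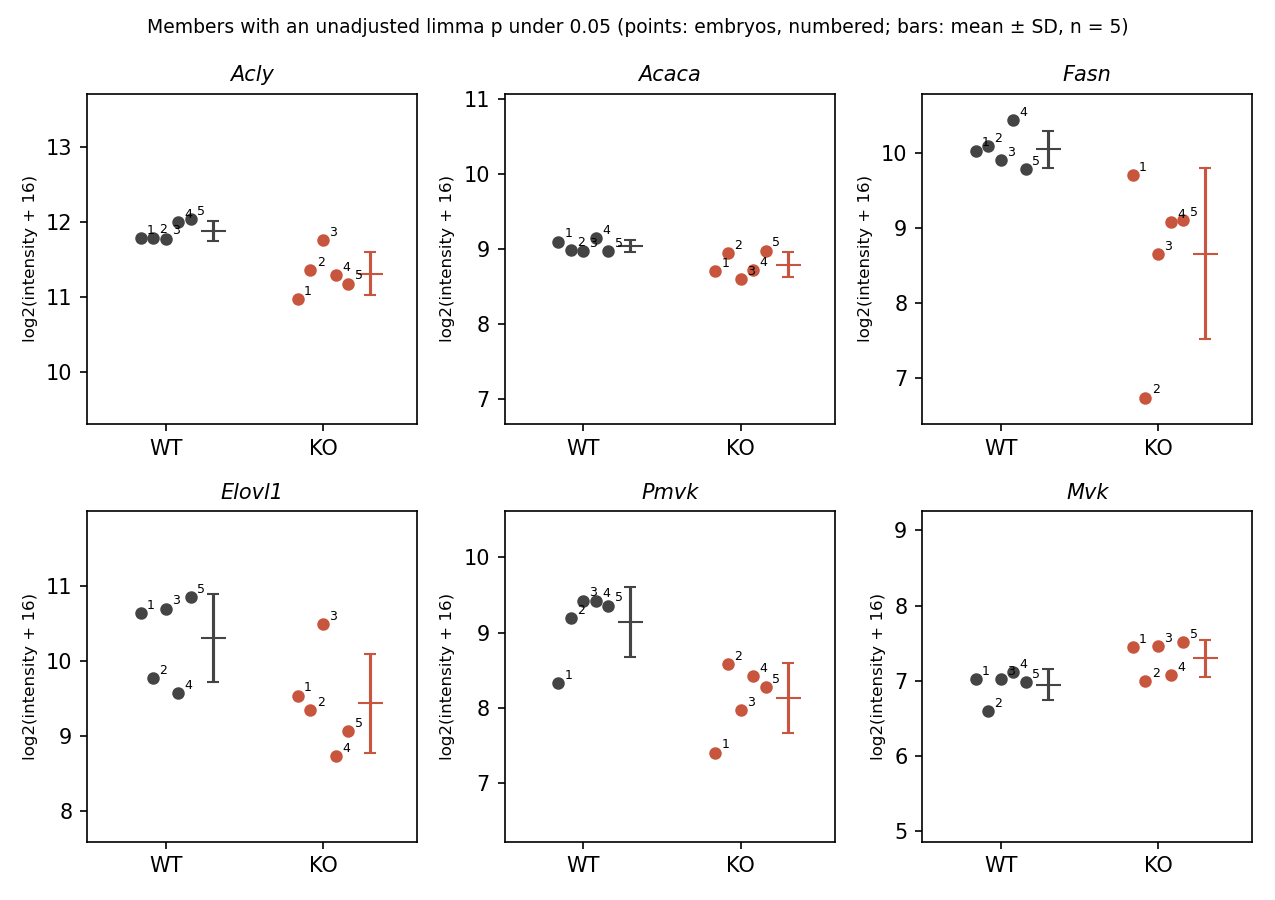
Levels of the 6 members with an unadjusted limma p under 0.05, as log2(intensity + 16), with 1 numbered point per embryo and the mean ± SD of 5 embryos beside them. All panels span the same range of log2 units. KO points lie below all WT points for Acly and Fasn, while Acaca, Elovl1, Pmvk and Mvk overlap.

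Among the elongases, which lengthen fatty acids beyond palmitate, Elovl1 had the largest difference. It was at 10.64, 9.77, 10.70, 9.57 and 10.85 in WT1 to WT5 and at 9.54, 9.35, 10.49, 8.74 and 9.07 in KO1 to KO5. KO3 lay among the WT embryos and the other 4 KO embryos lay below all of them. The means were 10.31 ± 0.59 and 9.44 ± 0.66 (SD, n = 5), a difference of -0.87 or 1.83-fold (limma adjusted p = 0.430). The other tested Elovl1 probe sets differed by -0.90 and -0.77, again with KO3 among the WT embryos, but all 3 are of the _x_at type and may share targets. Elovl5, which extends polyunsaturated chains, spread over 10.56 to 11.88 across WT and 9.83 to 11.95 across KO embryos, a difference of -0.26, and its other probe set differed by 0.77. Elovl6, which extends palmitate to stearate, differed by 0.01 at its brightest probe set (95% interval -0.61 to 0.64) and by 0.39 and 0.47 at the others.

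The desaturases, which place double bonds, had differences from -0.06 to 0.47 with a median of 0.25 at their brightest probe sets. There, 0 of 4 had an unadjusted limma p under 0.05. Scd2, the stearoyl-CoA desaturase of brain and embryonic tissue, was at 9.9997, 10.97, 11.09, 9.70 and 10.30 in WT1 to WT5 and at 11.15, 11.06, 11.08, 11.16 and 9.97 in KO1 to KO5. KO1 to KO4 lay close together at the top of the WT range or just above it, and KO5 lay among the lower WT embryos. The difference was 0.47 (95% interval -0.23 to 1.18, limma adjusted p = 0.739), and 0.20 without WT4 and WT5. Scd1, the form best known from liver and fat, was at 8.40, 9.75, 9.36, 8.15 and 8.95 in WT1 to WT5 and at 9.46, 9.31, 8.65, 9.68 and 9.87 in KO1 to KO5. The difference was again 0.47 (limma adjusted p = 0.749), yet the other Scd1 probe set, where WT4 and WT5 were the lowest WT embryos, differed by -0.68. Without WT4 and WT5 these differences were 0.22 and -1.05. Fads1 and Fads2, the delta-5 and delta-6 desaturases of polyunsaturated fatty acids, were near the level filter in every embryo (5.76 to 6.45) and differed by 0.03 and -0.06.

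The sterol branch was mixed. Of its 15 enzymes, 9 were higher and 6 lower in KO embryos, with differences from -1.02 to 0.43 and a median of 0.08. Pmvk, phosphomevalonate kinase, was at 8.33, 9.19, 9.43, 9.42 and 9.36 in WT1 to WT5 and at 7.40, 8.58, 7.96, 8.42 and 8.28 in KO1 to KO5. WT1 alone among the WT embryos lay within the KO range, and all KO embryos lay below the other 4 WT embryos. The means were 9.14 ± 0.47 and 8.13 ± 0.46 (SD, n = 5), a difference of -1.02 or 2.02-fold (95% interval -1.61 to -0.42, limma adjusted p = 0.178). Without WT1 the adjusted p was 0.0834, the lowest for Pmvk under any alternative, and Pmvk has no other probe set against which to set this. Within the high-bioB and low-bioB arrays the difference was -0.99 and -1.17.

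Mvk, mevalonate kinase, which acts just before Pmvk, had the opposite sign. It was at 7.02, 6.59, 7.02, 7.11 and 6.98 in WT1 to WT5 and at 7.45, 6.99, 7.46, 7.07 and 7.52 in KO1 to KO5. KO1, KO3 and KO5 lay above all WT embryos and KO2 and KO4 among them. The difference was 0.35 or 1.28-fold (6.95 ± 0.20 and 7.30 ± 0.25, SD, n = 5, limma adjusted p = 0.428), while the other Mvk probe set differed by -0.01. Hmgcs1, HMG-CoA synthase, was at 10.32, 11.34, 10.36, 10.69 and 10.80 in WT1 to WT5 and at 10.87, 10.47, 11.21, 11.14 and 10.47 in KO1 to KO5, which overlap throughout (difference 0.13, limma adjusted p = 0.947). The isomerase Idi1 differed by 0.07, mevalonate diphosphate decarboxylase Mvd by -0.28, and farnesyl diphosphate synthase Fdps, near the filter at 5.83 to 6.65, by -0.12. The median over these 6 early steps was -0.02.

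From squalene to cholesterol, 6 of 9 enzymes were higher and 3 lower, with a median of 0.13 and 0 of 9 at an unadjusted limma p under 0.05. Dhcr7, which completes cholesterol by reducing its immediate precursor, was at 9.01, 10.94, 9.62, 10.73 and 10.38 in WT1 to WT5 and at 9.23, 8.48, 8.46, 9.94 and 10.31 in KO1 to KO5. The genotypes overlapped, with WT1 below KO1, KO4 and KO5. The difference was -0.85 with a wide interval of -1.88 to 0.18 (10.13 ± 0.81 and 9.28 ± 0.84, SD, n = 5, limma adjusted p = 0.619). Nsdhl, which removes the methyl groups of the sterol ring, was at 8.11, 7.997, 8.20, 7.14 and 7.65 in WT1 to WT5 and at 8.64, 7.82, 8.21, 8.61 and 7.93 in KO1 to KO5. Its difference of 0.43 (limma adjusted p = 0.628) was 0.14 without WT4 and WT5, its lowest embryos. It was 0.13 in the high-bioB and 0.86 in the low-bioB arrays. Sqle, squalene epoxidase, a rate-limiting step, was at 7.87, 8.57, 8.03, 7.44 and 6.97 in WT1 to WT5 and at 7.11, 7.46, 7.82, 7.84 and 7.74 in KO1 to KO5. All KO embryos lay below WT1 to WT3. KO2 to KO5 lay above WT4 and WT5, KO2 by a narrow margin over WT4, and KO1 lay between WT4 and WT5. The difference was -0.18 over all arrays, -0.87 within the high-bioB arrays and 0.59 within the low-bioB arrays.

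Among the other late enzymes, Fdft1, squalene synthase, was at 10.83, 11.09, 10.85, 11.82 and 11.14 in WT1 to WT5 and at 10.81, 10.92, 10.17, 11.52 and 12.08 in KO1 to KO5. KO3 was the lowest and KO5 the highest of all embryos there, and the difference was -0.04. The lanosterol synthase Lss differed by 0.08 and the lanosterol demethylase Cyp51, near the filter at 5.25 to 6.65, by 0.27. The sterol reductase Tm7sf2 differed by 0.13, with KO1 at 7.93 and the other 9 embryos between 6.70 and 7.13. The ketosteroid reductase Hsd17b7 differed by 0.16, with KO4 at 8.98 above the 7.02 to 8.10 of the rest, and the isomerase Ebp by 0.20, with WT3 highest at 9.87. KO1 alone at Tm7sf2, KO4 alone at Hsd17b7 and WT3 alone at Ebp stood above all other embryos.

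The regulators of both branches did not differ in a way these arrays could resolve. Srebf2, the factor that drives sterol genes, was at 7.21, 7.21, 7.23, 7.28 and 7.08 in WT1 to WT5 and at 7.38, 7.14, 7.44, 7.08 and 6.89 in KO1 to KO5. Its difference was -0.02 with an interval of -0.28 to 0.24. Srebf1, which favours fatty acid genes, was at 9.07, 8.70, 8.89, 9.22 and 9.74 in WT1 to WT5 and at 9.68, 8.52, 9.48, 9.62 and 9.08 in KO1 to KO5, a difference of 0.15 (interval -0.41 to 0.72). The embryos of both genotypes covered almost the same range at Srebf1, from 8.52 to 9.74. Insig1, the sterol-sensing anchor and itself a known SREBP target, was at 8.48, 8.82, 8.04, 8.69 and 7.91 in WT1 to WT5 and at 8.45, 7.98, 8.0002, 8.62 and 8.45 in KO1 to KO5 (difference -0.09, interval -0.55 to 0.37). Scap, the escort protein, was at 7.99, 8.70, 8.70, 8.74 and 8.92 in WT1 to WT5 and at 8.93, 8.67, 8.37, 9.43 and 9.92 in KO1 to KO5. KO4 and KO5 were the highest and WT1 the lowest, and the difference was 0.46 (interval -0.18 to 1.10, limma adjusted p = 0.708).

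The branches were also set side by side by their medians. The median difference was 0.08 over the 15 sterol enzymes and -0.15 over the 10 fatty acid enzymes, 0.23 apart, and within the high-bioB arrays both were below 0, at -0.05 and -0.14. At the brightest probe sets, 2 of 15 sterol enzymes, of opposite sign, had an unadjusted limma p under 0.05. So did 4 of 10 fatty acid enzymes, all lower in KO, beside 11.1% of all tested genes. Dimmer probe sets of fatty acid enzymes that also had an unadjusted limma p under 0.05 went both ways. Acly (0.28), Scd2 (0.61) and Elovl6 (0.47) were higher in KO there, and Elovl1 (-0.90 and -0.77) was lower. Per embryo, the median deviation of the fatty acid enzymes lay between 0.02 and 0.17 in WT and between -0.17 and 0.02 in KO embryos, so that KO2 alone lay above the lowest WT embryo, WT4, by a narrow margin. For the sterol enzymes it lay between -0.15 and -0.01 in WT and between -0.21 and 0.21 in KO embryos, with KO4 the highest of all 10. The sterol minus fatty acid value per embryo lay between -0.28 and -0.03 in WT and between -0.23 and 0.39 in KO embryos, so the genotypes overlapped. Leaving out each embryo put the gap between the branch medians at 0.12 to 0.32. KO4 was above the gene's own mean for 11 of the 15 sterol enzymes but for 4 of the 10 fatty acid enzymes, and KO2 for 3 of 15 and 6 of 10. The fatty acid median was -0.02 when probe sets of the _x_at type, at which Acly, Elovl1 and Elovl5 were read, gave way to others where the gene had one tested. It was -0.05 without KO1 and -0.06 without WT5.

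The probe set that stands for a gene could change its direction. Of 16 members with more than 1 tested probe set, 9 had differences of both signs, among them Acly, Scd1, Scd2, Elovl5 and Mvk. The negative one was close to 0 at Mvk (-0.01), Srebf2 (-0.02), Fdft1 (-0.04), Hsd17b7 (-0.04), Lss (-0.06) and Scd2 (-0.06). The positive one at Acly was near the level filter. The share with both signs over all genes was not computed. WT4 and WT5 were the 2 lowest of the 10 embryos at 8 of the 24 dimmer tested probe sets of members and at 1 of the 29 brightest, beside 9.41% of all tested probe sets. Of those 8, Hmgcs1 has 2 and Mvd, Idi1, Hsd17b7, Acly, Elovl5 and Elovl6 have 1 each, and at Elovl5 alone the sign differs from that of the gene's brightest probe set. At Hmgcs1 a dimmer probe set read 8.38, 9.996, 8.44, 7.36 and 6.89 in WT1 to WT5 and between 8.40 and 9.28 in the KO embryos, while at the brightest WT4 and WT5 lay mid-range. At a dimmer Acly probe set WT4 and WT5 read 6.76 and 7.20 and the other 8 embryos between 7.22 and 8.44, while at the brightest they were the highest of all. That dimmer Acly probe set differed by -0.21 with all embryos and by -0.70 without WT4 and WT5.

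**Figure D4:**
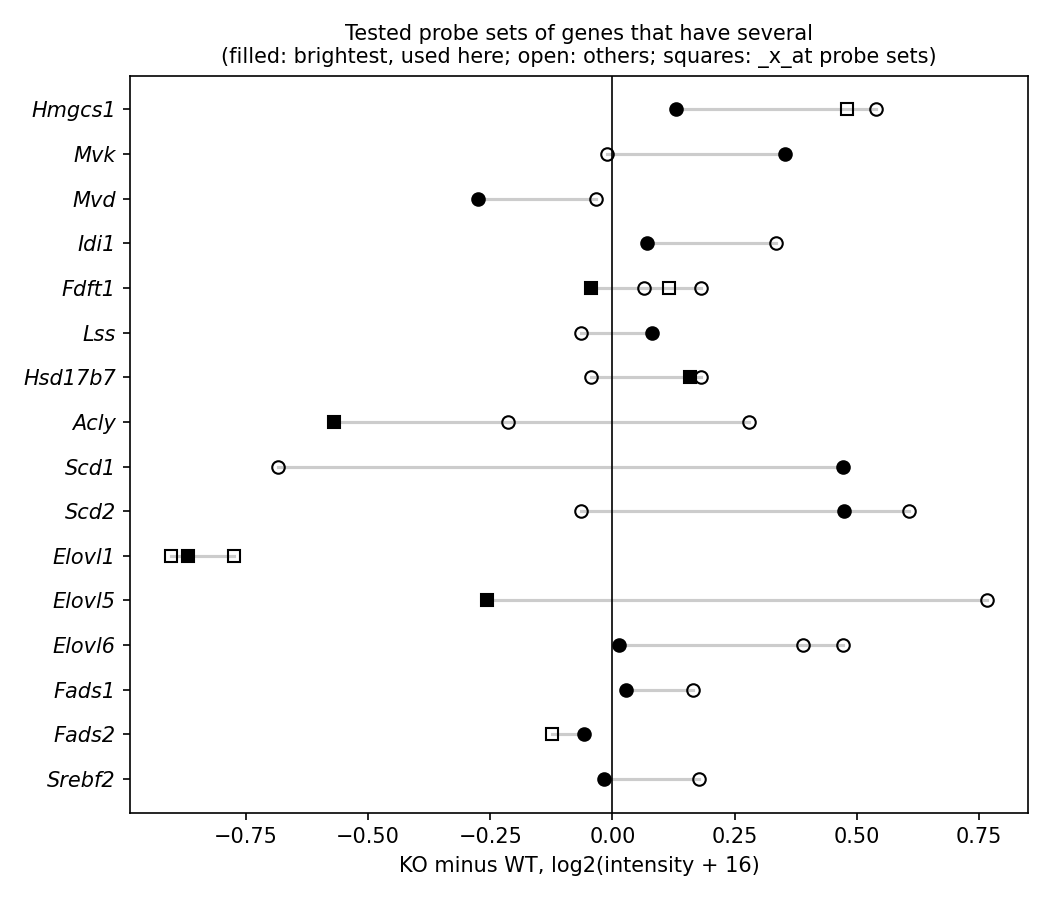
KO minus WT difference of every tested probe set for the 16 members that have more than 1, on the log2(intensity + 16) scale. Filled symbols are the brightest probe set, used for the gene elsewhere, open symbols the others, and squares mark _x_at probe sets. Elovl1 is the member whose probe sets all lie far below 0, between -0.90 and -0.77, while Scd1 spans -0.68 to 0.47 and Elovl5 -0.26 to 0.77.

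Other genes of sterol handling and fatty acid synthesis were read in the same way from lists of remaining sterol enzymes, sterol sensing and transport, and remaining fatty acid enzymes. The lists held 8, 17 and 21 genes, of which 4, 12 and 20 had a probe set with their symbol alone, so neither pathway is fully covered. Of the 4, 12 and 15 that were tested, 0 passed the adjusted limma p of 0.05, and 1, 4 and 0 had an unadjusted p under 0.05. Abca1, which exports cholesterol from cells, was at 5.69, 6.32, 6.01, 5.45 and 5.83 in WT1 to WT5 and at 6.63, 8.16, 7.26, 7.64 and 6.45 in KO1 to KO5. Every KO embryo lay above every WT embryo, as did 1.12% of all tested genes. The difference was 1.37 or 2.58-fold (limma adjusted p = 0.127), from a WT level close to the filter, and the other Abca1 probe set was below the filter. Scarb1, the receptor that takes up cholesterol from high-density lipoprotein, was at 8.22, 8.67, 8.10, 8.62 and 9.05 in WT1 to WT5 and at 7.74, 7.98, 7.80, 8.06 and 7.79 in KO1 to KO5. All KO embryos lay below all WT embryos, and its 3 probe sets differed by -0.66, -0.69 and -0.40 (limma adjusted p = 0.177 at the brightest, which is of the _x_at type).

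Sc5d, which introduces a double bond late in cholesterol synthesis, averaged 5.64 ± 0.25 in WT against 6.42 ± 0.41 in KO (SD, n = 5), differing by 0.78 (limma adjusted p = 0.176), with 0.02 at its other tested probe set. Within the high-bioB and low-bioB arrays Sc5d differed by 1.24 and 0.36. Mbtps1, the site-1 protease that cleaves SREBP, differed by 0.61 (limma adjusted p = 0.324) and Osbp, an oxysterol-binding transfer protein, by -0.28 (limma adjusted p = 0.376). Of the 15 tested remaining fatty acid enzymes, 0 had an unadjusted limma p under 0.05, with 9 higher and 6 lower. Of the 12 tested genes of sterol sensing and transport, 4 did, Abca1 and Mbtps1 higher and Scarb1 and Osbp lower, beside 11.1% of all tested genes.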

How the data were processed

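Single embryos were measured on 10 arrays, 5 WT and 5 Klf5 KO, grouped by their titles. Per the labels' protocols, cDNA of each embryo was amplified after Kurimoto and colleagues and labelled with biotin, and per the series' description the authors used GeneSpring GX. The deposited values are linear intensities per probe set, and how they were corrected for background, summarised and normalized is not given in the sources used here. Array medians lay between 40.0 and 43.6.

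Probe sets were named through the platform annotation: 30854 had 1 symbol, 781 several and 6988 none, and 53 controls were left out. All 29 members matched the RefSeq gene table by identifier with the same symbol. Values were taken as log2(intensity + 16), and the 23174 probe sets with a mean at or above the 40th percentile (5.55) were kept. KO was set against WT by limma 3.58.1 under R 4.3.3 (two-sided moderated test from lmFit and eBayes), without covariates. P-values were adjusted by Benjamini and Hochberg's method over the kept probe sets and called at 0.05. The procedure was tested on simulated data. The number of arrays limits the precision.

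The members, gene lists, motifs and tests were chosen with earlier results of these data known. Values in every embryo were printed for members with an unadjusted p under 0.05, the 2 largest differences in each direction and the brightest member of each branch, and the regulators, and of the other genes at most 10 by smallest p were named. Hmgcs1, Sqle and Acadm in every embryo, the embryos picked out at Tm7sf2, Hsd17b7 and Ebp and the probe sets read beside the brightest were named after their values were seen. The alternatives were other normalizations, filters, pseudocounts, variance priors, weights, blocks and probe sets, the bioB sets alone, and leaving out embryos. Reading genes without _x_at probe sets was added after seeing the data.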

Additional observations from a re-analysis of the deposited data

Results flagged for a closer look

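In 7 of 74 groups of 5 embryos (the members and the other genes named by rule, in each genotype), a single embryo lay far from the other 4 by Dixon's ratio, above the critical value of 0.71. Chance alone flags about 1 group in 20.

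Of these, 3 were in WT1. Pmvk read 8.33 there and 9.19 to 9.43 in the other WT embryos, Scap read 7.99 against 8.70 to 8.92, and Fdps read 6.65 against 5.91 to 5.996. In WT2, Mvk read 6.59 against 6.98 to 7.11. Pmvk and Mvk are members with an unadjusted limma p under 0.05. Without WT1 the Pmvk difference was -1.22 (limma adjusted p = 0.0834), and without WT2 that of Mvk was 0.26 (limma adjusted p = 0.575).

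In KO4, Hsd17b7 read 8.98 against 7.32 to 7.68 in the other KO embryos, and Fads2 read 5.76 against 5.89 to 5.93, a gap of little size near the level filter. In KO5, Scd2 read 9.97 against 11.06 to 11.16. KO2 at Fasn (6.74) did not pass that ratio.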

How the results depend on the processing

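No member passed the adjusted limma p of 0.05 under any alternative run, and the smallest adjusted p of a member was 0.0663, for Acly without KO3. Between 3 and 7 members had an unadjusted limma p under 0.05. The count was 8 where each gene took the smallest p among its tested probe sets, which is not a test of their mean. Of 23174 probe sets, 85 were called as reported, 24 with the embryo number as a replicate block, 1 within the high-bioB arrays, 0 within the low-bioB arrays (3512 at an unadjusted limma p under 0.05) and 45 to 63 when each embryo was left out. The block called 0 members. Same-numbered embryos share only a number (correlations of their deviations -0.03 to 0.18, 2 of 5 over 0.1). Among the other genes 1 was called without WT4 and WT5.

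The fatty acid median was -0.25 with the filter at the 60th percentile, where 25 members were left, -0.022 without _x_at probe sets and -0.20 to -0.054 leaving out each embryo. The sterol median was -0.053 within the high-bioB arrays and 0.027 to 0.16 leaving out each embryo.

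Of the members, 13 kept their direction under every alternative run and 16 did not. Within the high-bioB arrays Hmgcs1 was at -0.0054, Idi1 -0.30, Ebp -0.055, Elovl6 -0.17 and Srebf2 0.044. Within the low-bioB arrays Fdps was at 0.078, Sqle 0.59, Lss -0.084, Tm7sf2 -0.12, Fads1 -0.079, Insig1 0.055 and Srebf1 -0.091. Without WT4 and WT5 Idi1 was at -0.034, Fdft1 0.18, Ebp -0.014, Elovl5 0.043 and Elovl6 -0.26. With the mean over probe sets Fdft1 was at 0.079, Scd1 -0.11, Elovl5 0.25 and Srebf2 0.081, and without _x_at probe sets Fdft1 was at 0.064 and Elovl5 at 0.77. With array weights Fdft1 was at 0.042 and Elovl6 at -0.10, with quantile normalization Elovl6 was at -0.043, and with the bioB set as a block Srebf2 was at 5.2e-05. Leaving out each embryo gave Idi1 -0.079 to 0.18, Fdps -0.16 to 0.024, Fdft1 -0.29 to 0.19, Sqle -0.39 to 0.015, Lss -0.0040 to 0.16, Tm7sf2 -0.062 to 0.25, Hsd17b7 -0.14 to 0.28, Elovl6 -0.18 to 0.21, Fads1 -0.049 to 0.072, Insig1 -0.21 to 0.019 and Srebf2 -0.080 to 0.058. The cause of these changes was not tested. Signal close to the level filter limits Fdps, Cyp51, Fads1 and Fads2.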

Other observations

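Genes that use or burn the products of these pathways were read as 2 further lists. They held 13 and 21 genes, of which 13 and 17 had a probe set with their symbol alone. Of 12 tested genes of glycerolipid synthesis and storage, 0 passed the adjusted limma p of 0.05 and 0 had an unadjusted p under 0.05, with 5 higher and 7 lower in KO embryos and a median of -0.03. Of 16 tested genes of fatty acid uptake and oxidation, 0 passed and 3 had an unadjusted p under 0.05, beside 11.1% of all tested genes. Ppard, a nuclear receptor for fatty acids, was at 7.29, 6.96, 7.83, 7.08 and 6.91 in WT1 to WT5 and at 5.99, 6.78, 6.29, 6.38 and 6.60 in KO1 to KO5 (difference -0.81, limma adjusted p = 0.154). The genotypes did not overlap, where 1.65% of all tested genes were lower in KO without overlap. Fabp5, a cytoplasmic fatty acid carrier, was at 12.75, 13.56, 12.89, 13.12 and 13.62 in WT1 to WT5 and at 13.58, 14.01, 14.09, 13.85 and 13.88 in KO1 to KO5. Its difference was 0.70 (limma adjusted p = 0.180), and 1.54 at its other probe set. Acsl5, an acyl-CoA synthetase, differed by 0.33 near the level filter (limma adjusted p = 0.441), by 0.60 within the high-bioB and 0.11 within the low-bioB arrays.

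Acadm, the medium-chain acyl-CoA dehydrogenase of fatty acid oxidation, depended on WT4 and WT5. It was at 10.56, 10.52 and 10.49 in WT1 to WT3, at 8.74 and 8.65 in WT4 and WT5, and at 8.99, 9.41, 8.87, 9.36 and 8.81 in KO1 to KO5. With all embryos the difference was -0.70 (limma adjusted p = 0.665). Without WT4 and WT5 the KO mean was lower by 1.44 (limma adjusted p = 0.0201). That was the single call among the 59 tested genes outside the members, where 0.315% of tested probe sets were called. WT4 and WT5 were singled out in these same data. The WT embryos left are all high-bioB arrays, while KO3 to KO5 are low-bioB. Within the high-bioB arrays the difference was -1.32 (limma adjusted p = 0.175), and within the low-bioB arrays, which hold WT4 and WT5, it was 0.32 (limma adjusted p = 0.525). Which of these WT levels is typical of the stage was not tested.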
